A study of Mus musculus with 9 samples.

Results

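Expression of 38 genes of glucose uptake, glycolysis, pyruvate handling and the pentose phosphate pathway was examined in muscle satellite cells of mice that lack Bmi1 (KO) and of wild type controls (WT). Genes were found by name among the non-control probes of the array, and the probe with the highest mean log2 processed signal stood for each gene. All 38 were present, with 59 probes in all, among 36406 gene names and unnamed features. Of these genes, 37 were well above background on at least 3 of the 9 arrays and were tested, within a fit of 28380 features. The gene left out was Pfkfb1, a form of the fructose-2,6-bisphosphate enzyme best known from liver and muscle, which was not well above background on any array.

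Satellite cells are the stem cells of skeletal muscle, lying quiescent beneath the basal lamina of the fibre. Glucose enters cells through carriers of the Slc2a (GLUT) family, is trapped by hexokinase and is split by glycolysis to pyruvate. Pyruvate is then reduced to lactate by lactate dehydrogenase or enters mitochondria through the pyruvate dehydrogenase complex, which Pdk kinases switch off. The pentose phosphate pathway branches off at glucose-6-phosphate and supplies NADPH and ribose. Many steps are served by several isozymes, each made by its own gene and typical of certain tissues. Bmi1 belongs to a Polycomb complex that keeps its target genes silent.

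Both groups were of the FVB background, labelled male and 2 months old, and the KO group is described as Bmi1-deficient with no allele given. The cells had been sorted from dissociated muscle on integrin alpha-7 and CD34, with CD31, CD45, CD11b and Sca1 as markers for removal. Their RNA was amplified before hybridisation with a single dye, Cy3. There were 3 WT and 6 KO arrays. The KO arrays form 3 pairs that share a first number in their descriptions (replicates 1 and 4, 2 and 5, 3 and 6), correlated at r from 0.9944 to 0.9956 over probes, against 0.9622 to 0.9786 for the 33 other pairs of arrays. Each pair was averaged as 1 sample, leaving 3 WT and 3 KO samples. This goes against the titles, which call all 9 arrays biological replicates and number those of KO from 1 to 6. If the titles hold, the fit of all 9 arrays as separate samples is the one that applies. It is given below for the genes with the smallest p. One KO array, replicate 1, carries the entry wild type in its genotype field but KO in its title, source and description, and it belongs to KO sample 1. Cdkn2a, the best known gene silenced by Bmi1, was higher by 3.28 ± 0.21 in KO (log2, SE; limma adjusted p = 0.0157), with -0.92 in KO sample 1 and -0.57 and -0.82 in the others, against -4.28, -4.23 and -3.64 in WT.

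Between 71.9% and 75.8% of spots were well above background on each array, and 0 were saturated. All 12 satellite cell markers listed, among them Pax7 and Itga7, were well above background on all 9 arrays, with a median difference of 0.09. Of these, 9 lay above WT and 3 below, and the groups were apart for 3, or 25.0%, beside 16.7% of all features. Sdc4 differed by 0.75 ± 0.13 (limma adjusted p = 0.106), Chrna1 by 0.38 ± 0.18, Pax7 by 0.02 and Itga7 by -0.01. Markers of several other cell types were higher in KO, while those of myeloid cells (median -0.07, 6 of 8 genes lower) and erythroid cells (0.07) were not. Medians against the WT mean in KO samples 1, 2 and 3 were 1.60, 0.30 and 0.99 for 10 endothelial genes, 1.05, 0.43 and 0.89 for 9 mesenchymal genes, and 0.97, 0.17 and 0.67 for 9 mural genes, of which Pdgfrb was called (1.35 ± 0.11, limma adjusted p = 0.0377). Proliferation markers were lower (-0.99, -0.56 and -1.81). Precision is limited by how few arrays there are. The titles call the samples biological replicates, and the labels do not say whether each is 1 animal, a pool or a culture.

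The signals rest on single 60-base probes, and the probes of those genes on which the results turn are given first, in lower case, with positions in mm9. Those of Ldhb and Eno2 stand beside those of Ldha and Eno1, since these pairs are compared as isozymes.
Ldhb, chromosome 6, 142438770 to 142438829: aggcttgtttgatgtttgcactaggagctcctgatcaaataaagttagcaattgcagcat
Ldha, chromosome 7, 54110937 to 54110996: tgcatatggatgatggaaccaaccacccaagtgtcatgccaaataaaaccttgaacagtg
Eno2, chromosome 6, 124710388 to 124710447: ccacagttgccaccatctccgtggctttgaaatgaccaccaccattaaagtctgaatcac
Eno1, chromosome 4, 149622928 to 149622987: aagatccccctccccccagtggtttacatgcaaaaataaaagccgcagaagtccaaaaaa
Pdk1, chromosome 2, 71739688 to 71739747: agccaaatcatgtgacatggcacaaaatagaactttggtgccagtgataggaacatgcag
Slc2a1, chromosome 4, 118809864 to 118809923: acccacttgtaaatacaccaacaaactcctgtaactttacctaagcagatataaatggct
The longest run of bases shared by the Ldhb and Ldha probes was 8, and by the Eno2 and Eno1 probes 5. This compares probe with probe only. Whether a probe can also read the transcript of the other isozyme was not tested.

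None of the 37 tested genes passed the test between 3 WT and 3 KO samples, and 2, Ldhb and Pdk1, passed with all 9 arrays as separate samples. With separate arrays, 1199 of all 28380 features passed. In the fit of separate arrays, Slc2a1, Pgk1 and Eno2 came next (limma adjusted p = 0.0504, 0.0528 and 0.0626). The counts that follow are from the fit of 3 WT and 3 KO samples. The limma count over all features was 40, or 0.141%, at an adjusted p under 0.05 (37 higher, or 0.130%, and 3 lower, or 0.0106%), and 0 of the 37 were among them. Those with the smallest p were Ldhb, the heart-type subunit of lactate dehydrogenase (0.80 ± 0.15 higher in KO, log2 and SE; limma adjusted p = 0.127), and Pdk1, a kinase that shuts off pyruvate dehydrogenase (0.76 ± 0.15; adjusted p = 0.143). Slc2a1, the glucose carrier GLUT1, was 0.88 ± 0.23 higher (adjusted p = 0.241). At an unadjusted p under 0.05 there were 5 of 37, or 13.5%, beside 11.0% of all features. Of the 37, 20 lay above WT and 17 below, beside 47.2% of all features above WT, with a median difference of 0.01, beside -0.02 over all features. The groups did not overlap for 8 genes, or 21.6%, beside 16.7% of all features: 4 were higher in KO (8.62% of all features) and 4 lower (8.09%). The fitted difference was over 1.5-fold for 4 genes, or 10.8%, beside 14.1% of all features: Slc2a1, Ldhb, Pdk1 and Slc16a1. Slc16a1 was dim on all WT arrays, so the size of its difference is not well measured. These shares are near the background.

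**Figure D1:**
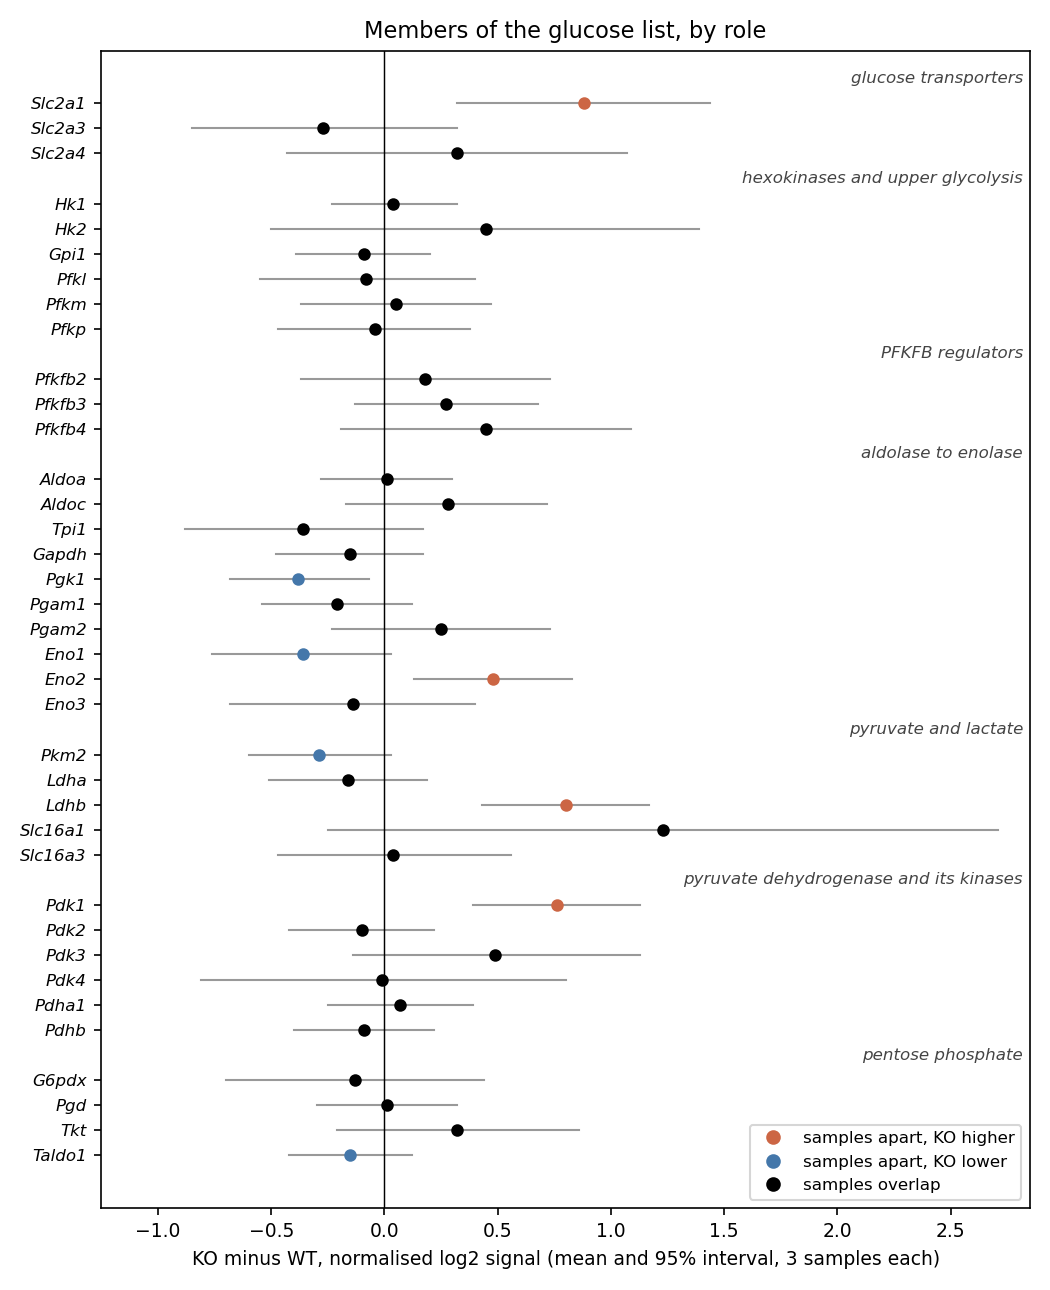
Difference between KO and WT in normalised log2 signal for the 37 tested genes, grouped by role; points are differences of means of 3 samples each and lines 95% intervals from limma. Orange points (Slc2a1, Eno2, Ldhb, Pdk1) and blue points (Pgk1, Eno1, Pkm2, Taldo1) are genes whose samples do not overlap; no gene passed after adjustment.

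Values are log2 signal relative to the 75th percentile of the array, so a value of 0 is a signal at that percentile, and differences are KO minus WT. The level of 1 gene was not set against that of another, since probes differ in how well they bind. The 95% interval stayed within 1.5-fold in both directions for 15 of the 37 genes and excluded 0 for 5.

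Among the glucose carriers, Slc2a1 differed most. Its signal was 1.15, 0.86 and 1.23 in the WT samples and 2.40, 1.85 and 1.64 in the KO samples. All KO samples lay above all WT samples, with KO sample 1 the highest, and the means were 1.08 ± 0.19 and 1.96 ± 0.39 (SD, n = 3 each), a ratio of 1.84-fold. On slide 1 alone the difference was 0.78, and on slide 2, which has 1 WT array, 1.09; a slide block gave 0.94 (limma adjusted p = 0.319). Without KO sample 1 it was 0.66. Medians of endothelial (1.60), mesenchymal (1.05), mural (0.97) and muscle fibre (1.01) markers were also highest in KO sample 1. The endothelial median was 0.30 and 0.99 in KO samples 2 and 3. The part of such cells in the Slc2a1 difference was not tested. Among endothelial markers Cdh5 differed by 1.48, Pecam1 by 1.97 ± 0.90 with overlapping samples, and the receptor Kdr by 0.17. In bulk samples, a change in the share of a cell type and a change of RNA per cell cannot be told apart.

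Slc2a3 (GLUT3), a carrier of high affinity best known from neurons, differed by -0.27 ± 0.24, with -2.06 in KO sample 3 and -1.19 and -1.48 in the other KO samples, against -1.45 to -1.20 in WT. The groups overlapped. Slc2a4 (GLUT4), the insulin-responsive carrier of muscle and fat, differed by 0.32 ± 0.31. That value rested on WT sample 3 (-1.99, against -1.02 and -0.86 in the other WT samples and -1.03 to -0.93 in KO), and without that sample it was -0.03.

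Of the hexokinases and the next enzymes, 3 of 6 lay above WT and 3 below, by -0.09 to 0.45, with 0 called. Hk1, the ubiquitous hexokinase, differed by 0.04 (95% interval -0.23 to 0.32). Hk2, the inducible form of muscle, differed by 0.45 ± 0.39, with -3.13, -4.21 and -2.89 in KO and -3.51, -3.80 and -4.26 in WT, so that KO sample 2 lay among the WT samples; the 95% interval was wide, -0.50 to 1.39. Gpi1, glucose-6-phosphate isomerase, differed by -0.09 (-0.39 to 0.20). The phosphofructokinase subunits Pfkl (-0.08), Pfkm (0.05) and Pfkp (-0.04), which catalyse the committed step of glycolysis in liver, muscle and platelet forms, each differed by less than their standard errors. In this group 0 of 6 genes had samples apart.

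The Hk1 result depended on the probe. Its 3 probes lie on the minus strand of chromosome 10, and they are printed because they disagree.
Hk1 chosen probe, 61731230 to 61731288: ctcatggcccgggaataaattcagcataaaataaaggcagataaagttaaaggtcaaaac
Hk1 next probe, 61731856 to 61731915: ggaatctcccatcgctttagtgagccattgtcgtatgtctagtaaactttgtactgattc
Hk1 last probe, 61732717 to 61732776: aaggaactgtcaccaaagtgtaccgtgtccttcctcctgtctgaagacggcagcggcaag
The chosen probe differed by 0.04, the next by -0.25 ± 0.17 and the last by -0.51 ± 0.15. At the last, WT was 3.47, 3.60 and 3.76 and KO 3.24, 3.15 and 2.90, so the samples were apart. The array annotation ties the chosen probe to another accession (J05277) than the other 2 (NM_001146100), and whether they read the same transcripts was not tested. Of the 11 genes with 2 or more probes, 8 had differences of 1 sign over all of their probes. The exceptions were Hk1, Pdhb (-0.09 to 0.10) and Pdk2 (-0.10 to 0.00).

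**Figure D2:**
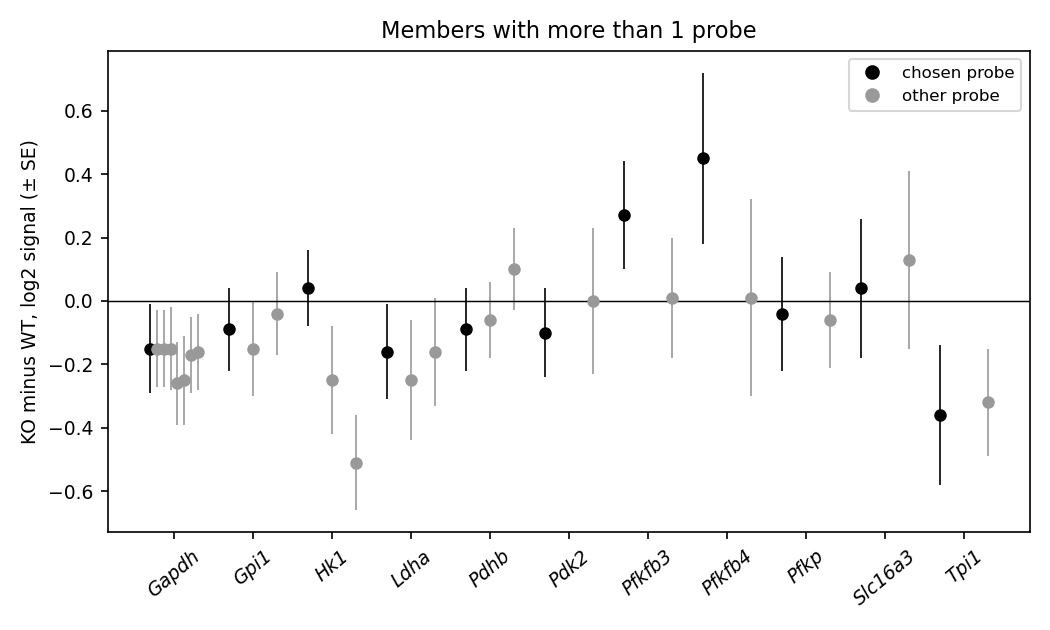
Difference between KO and WT in log2 signal at each probe of the 11 genes with more than 1 probe, with bars of 1 SE; black points are the probes used for the gene and grey points its other probes. The 8 Gapdh probes all lie between -0.26 and -0.15, while the 3 Hk1 probes spread from -0.51 to 0.04.

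The Pfkfb genes encode the enzymes that make and break fructose-2,6-bisphosphate, the activator of phosphofructokinase. The 3 that were tested lay above WT, with 0 called: Pfkfb2 by 0.18 ± 0.23, Pfkfb3 by 0.27 ± 0.16 and Pfkfb4 by 0.45 ± 0.26. Pfkfb4 was -0.08, 0.51 and -0.46 in WT and 0.44, 0.61 and 0.27 in KO. WT sample 2 thus lay within the KO range, and the difference was -0.08 within slide 2, whose single WT array it is. Second probes of Pfkfb3 and Pfkfb4 both differed by 0.01.

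From aldolase to enolase, 4 of 10 genes lay above WT and 6 below (median -0.15), with 0 called. Aldoa, the aldolase of muscle and most tissues, differed by 0.01 (-0.28 to 0.30), and Aldoc, its brain form, by 0.28 ± 0.18. Tpi1, triosephosphate isomerase, differed by -0.36 ± 0.22, with -0.32 at its second probe. Pgam1, the common phosphoglycerate mutase, differed by -0.21 ± 0.13 and the muscle form Pgam2 by 0.25 ± 0.20. All of these overlapped between groups.

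Gapdh, the glyceraldehyde-3-phosphate dehydrogenase often used as a reference gene, was 6.78, 6.55 and 6.87 in WT and 6.57, 6.65 and 6.52 in KO. The chosen probe differed by -0.15 ± 0.13 and the groups overlapped. All 8 of its probes lay below WT, by -0.26 to -0.15, and at 5 of them the samples were apart. Many processed copies of Gapdh lie elsewhere in the genome, and the annotation places 2 of the 8 probes on chromosomes 7 and 8, whereas RefSeq places the gene on chromosome 6. The run of 30 bases in capitals is common to a probe on chromosome 6 and the probe on chromosome 7, and it was not tested which copy each probe reads.
Gapdh probe at 125111869 to 125111928 of chromosome 6: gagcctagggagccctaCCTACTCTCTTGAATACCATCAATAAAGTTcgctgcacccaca
Gapdh probe at 59003199 to 59003257 of chromosome 7: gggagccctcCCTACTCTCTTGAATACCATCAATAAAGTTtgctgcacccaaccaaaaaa
They differed by -0.16 and -0.17. The 8 probes are readings of 1 gene name and not independent replicates.

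Pgk1, phosphoglycerate kinase, was 4.24, 4.03 and 4.29 in WT and 3.80, 3.75 and 3.89 in KO. The samples were apart and the difference was -0.38 ± 0.13 (limma adjusted p = 0.356). Slides 1 and 2 alone gave -0.43 and -0.24, and a slide block gave -0.34. Its only probe is placed at 57906830 to 57906894 of chromosome 3, whereas RefSeq places Pgk1 on the X chromosome, and it was not tested which copy the probe reads. Its sequence is shown for that reason.
Pgk1: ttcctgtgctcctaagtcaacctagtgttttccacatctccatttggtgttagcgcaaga

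The enolases did not move alike. Eno1, the enolase of most tissues, was 4.17, 4.06 and 4.51 in WT and 4.01, 3.89 and 3.74 in KO. The samples were just apart, with 4.06 in WT sample 2 and 4.01 in KO sample 1, and the difference was -0.36 ± 0.16 (limma adjusted p = 0.495). Eno2, the neuronal form, was -1.48, -1.39 and -1.70 in WT and -0.88, -1.14 and -1.11 in KO, a difference of 0.48 ± 0.14 in the other direction (adjusted p = 0.299). Within slides 1 and 2 Eno2 differed by 0.63 and 0.27 and Eno1 by -0.35 and -0.29. Eno3, the muscle form, differed by -0.14 ± 0.22. Glial markers were also higher in KO, in 7 of 8 genes tested, with a median of 0.85, and their part in the Eno2 difference was not tested.

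Of the enzymes that end glycolysis, Pkm2, pyruvate kinase of muscle (Pkm in RefSeq, the array's name being an older one), was 5.68, 5.41 and 5.69 in WT and 5.37, 5.29 and 5.27 in KO. WT sample 2 lay closest to KO, and the difference was -0.29 ± 0.13 (limma adjusted p = 0.5), -0.35 within slide 1 and -0.13 within slide 2. A single probe was used, and it was not examined which splice forms it reads. Ldha, the muscle-type subunit of lactate dehydrogenase, differed by -0.16 ± 0.14, with -0.25 and -0.16 at its other probes and overlapping samples.

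Ldhb was -0.19, -0.37 and -0.51 in the WT samples and 0.45, 0.26 and 0.60 in the KO samples. Every KO sample lay above every WT sample, and the means of -0.36 ± 0.16 and 0.44 ± 0.17 (SD, n = 3 each) correspond to 1.74-fold. Leaving out any 1 sample kept the difference between 0.72 and 0.88. Slides 1 and 2 alone gave 0.83 and 0.77, and a slide block 0.80 (limma adjusted p = 0.239). When all 9 arrays entered the fit, with samples as random and slides as fixed blocks, Ldhb (adjusted p = 0.0359) and Pdk1 (0.0376) passed, as they did with all arrays as separate samples (0.00795 and 0.0134). If both arrays of a pair hold the same RNA, the p from these fits may be too small.

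Slc16a1 (MCT1), a carrier of lactate and pyruvate, was well above background on 4 of 6 KO arrays and 0 of 3 WT arrays. KO samples were -4.69, -7.09 and -5.36, of which sample 2 lay among the WT values of -7.28, -6.75 and -6.82. With the dimmest measurable signal as the limit in WT, the KO mean was 1.39-fold higher. That is not a lower bound, since the mean includes KO sample 2 and the groups overlapped. The fitted difference was 1.23 ± 0.61, with a limma interval of -0.25 to 2.71. This difference rests on signals near background and was 0.32 after the normexp correction. Slc16a3 (MCT4), the lactate exporter of glycolytic cells, differed by 0.04 ± 0.21.

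**Figure D3:**
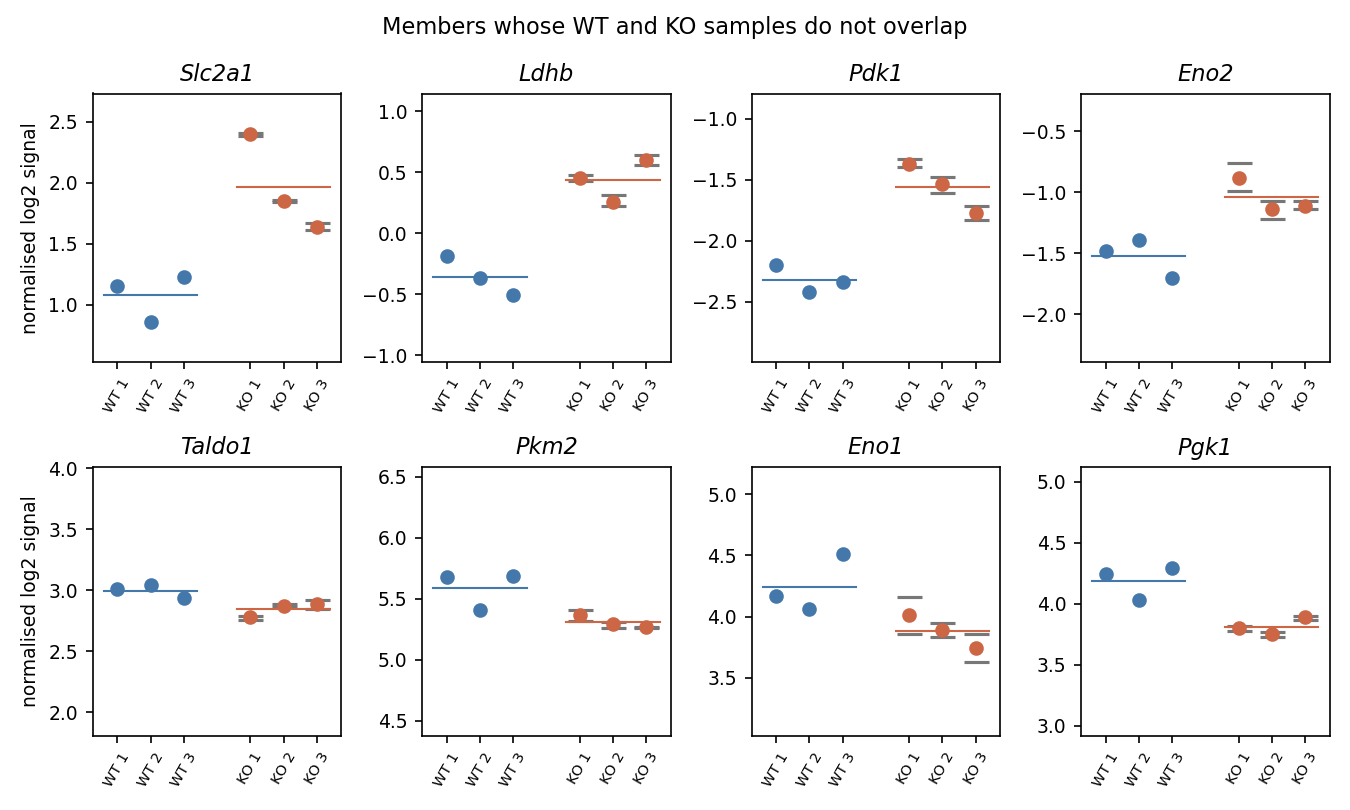
Normalised log2 signal in each WT sample (blue) and KO sample (orange) for the 8 genes whose groups do not overlap; horizontal lines are group means, grey dashes the 2 arrays behind each KO sample, and every panel spans the same range of log2 signal. The gap between groups is widest for Ldhb, Pdk1 and Slc2a1 and smallest for Eno1, Pkm2 and Taldo1.

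Of the 4 Pdk kinases, Pdk1, which is also known as a target of hypoxia-inducible factor, stood apart. It was -2.20, -2.42 and -2.34 in WT and -1.37, -1.54 and -1.77 in KO. All KO samples lay above WT, KO sample 3 being the closest, and the means of -2.32 ± 0.11 and -1.56 ± 0.20 (SD) correspond to 1.69-fold. Slides 1 and 2 alone gave 0.76 and 0.81, a slide block 0.78 (limma adjusted p = 0.237), and the difference was 0.54 after the normexp correction. Leaving out 1 sample gave 0.66 to 0.86.

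Pdk2 differed by -0.10 ± 0.13 and Pdk3 by 0.49 ± 0.26, with overlapping samples. Pdk4, the kinase induced by fasting and fatty acids, differed by -0.01 ± 0.33 but varied among samples: 0.30, 0.42 and -0.16 in WT and -0.50, 0.43 and 0.60 in KO. KO sample 1 was the lowest of all 6 and KO sample 3 the highest. The subunits of the pyruvate dehydrogenase E1 enzyme that these kinases act on differed little, Pdha1 by 0.07 (-0.25 to 0.39) and Pdhb by -0.09 (-0.40 to 0.22).

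In the pentose phosphate pathway, 2 of 4 genes lay above WT and 2 below (median -0.06). G6pdx, its first and rate-limiting dehydrogenase, was 0.19, 0.44 and 0.68 in WT and 0.72, 0.24 and -0.02 in KO, a difference of -0.13 ± 0.23. Pgd, the second dehydrogenase, differed by 0.01 (-0.30 to 0.32). Of the enzymes that shuffle sugars back to glycolysis, Tkt, transketolase, differed by 0.32 ± 0.22. Taldo1, transaldolase, was 3.01, 3.04 and 2.94 in WT and 2.78, 2.87 and 2.89 in KO. These samples were apart, but by little, and the difference of -0.15 ± 0.11 did not pass (limma adjusted p = 0.71).

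Isozymes of 1 step were then compared within each sample, where the scaling of an array cancels. This comparison was added after the values had been seen, for 10 pairs of a tissue form over the common form. The log2 ratio of Ldhb over Ldha, set to the WT mean, was 0.15, 0.20 and -0.35 in WT and 1.02, 0.75 and 1.09 in KO. The KO ratios were higher throughout, by 0.95, or 1.94-fold. Eno2 over Eno1 was 0.12, 0.32 and -0.44 in WT and 0.88, 0.74 and 0.92 in KO, a difference of 0.84, or 1.80-fold. Slc2a3 over Slc2a1 differed by -1.15, with -1.20, -0.94 and -1.31 in KO. For these 3 pairs the samples were apart and the exact two-sided permutation p was 0.1, the smallest that 3 samples against 3 allow, with 0.333 after Benjamini-Hochberg adjustment over the 10 pairs. The other pairs overlapped between groups. They include Pgam2 over Pgam1 (0.46, exact p = 0.2) and Aldoc over Aldoa (0.27, exact p = 0.3).

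**Figure D4:**
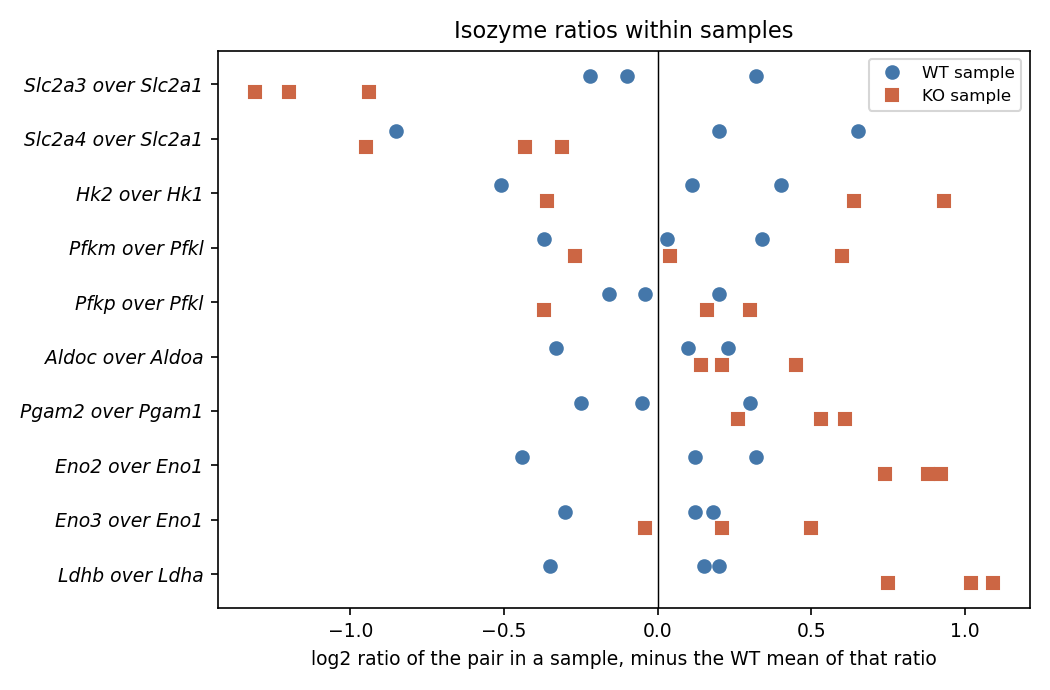
Log2 ratio of 2 isozyme genes within a sample, minus the WT mean of that ratio, for 10 pairs; blue circles are the 3 WT samples and orange squares the 3 KO samples. WT and KO are apart for Slc2a3 over Slc2a1, Eno2 over Eno1 and Ldhb over Ldha.

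Other genes of glucose use were read from 11 lists of 150 genes, of which 138 were tested. The limma count was 0 in both directions, beside 0.141% of all features. At an unadjusted p under 0.05 there were 19, or 13.8%, beside 11.0% of all features. Of the 138, 67 lay above WT and 71 below (median -0.02), beside 47.2% of all features above WT. The groups were apart for 16.7%, the same share as for all features. Among 9 other pentose phosphate genes the transketolase-like Tktl1 differed by 1.59 ± 0.26 (adjusted p = 0.103). Among 19 glycogen genes the liver-type phosphorylase Pygl differed by 1.07 ± 0.22 and the muscle type Pygm by 0.32 ± 0.11. Among 8 other sugar carriers the inositol carrier Slc2a13 differed by 0.93 ± 0.21. Of 7 serine branch genes, 6 lay below WT (median -0.45), with Shmt2 at -0.51 ± 0.19 and Psat1 at -0.48 ± 0.20. Of 12 genes around the pyruvate dehydrogenase complex, Pdp1, the phosphatase that opposes the Pdk kinases, differed by 0.42 ± 0.14 and Emb, a partner of lactate carriers, by -0.64 ± 0.24. Of 13 other glycolytic genes, Pgp differed by -0.42 ± 0.15 and the liver-type pyruvate kinase Pklr, well above background on 7 of 9 arrays, by 1.27 ± 0.54. Of 11 hexosamine and polyol genes, Gfpt2, which starts hexosamine synthesis, differed by 0.62 ± 0.13 and the aldo-keto reductase Akr1b8 by 0.77 ± 0.21. Of 5 gluconeogenesis genes, Pck1 was well above background on 4 of 9 arrays, with -3.54, -7.05 and -3.46 in KO and -6.73, -7.19 and -8.22 in WT, so that its difference is not measured, and Pck2 differed by -0.71 ± 0.29, and of 12 NADPH and Nrf2 target genes, Me1 by 0.31 ± 0.13 and Nqo1 by 0.72 ± 0.31.

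Hypoxia-inducible factors drive many glycolytic genes, Slc2a1 and Pdk1 among them. Hif1a differed by -0.11 ± 0.26, while Epas1, which encodes HIF-2 alpha and is prominent in endothelium, was 0.67, 0.97 and 1.34 in WT and 2.16, 1.79 and 1.89 in KO, a difference of 0.95 ± 0.21 (limma adjusted p = 0.169). The asparagine hydroxylase Hif1an, which restrains both factors, differed by -0.48 ± 0.14. Of 14 other hypoxia response genes, 10 lay above WT (median 0.09) and 3 had samples apart, or 21.4%, beside 16.7% of all features: Ndrg1 (0.93 ± 0.11, adjusted p = 0.0622), the peptide hormone gene Adm (2.42 ± 0.43, adjusted p = 0.113) and Vegfa (0.25 ± 0.14). Ndrg1 was 2.17, 2.19 and 2.03 in WT and 3.03, 3.09 and 3.07 in KO. It passed, with Adm, after the normexp correction and in the deposited values. These settings gave nearly the same differences (Slc2a1 0.86 in both), so they are not separate evidence. Other members that this pathway can induce lay on both sides of WT. Among them, Hk2, Pfkfb3, Pfkfb4 and Aldoc differed by 0.45, 0.27, 0.45 and 0.28, all with overlapping samples. Eno1, Pgk1, Ldha and Aldoa differed by -0.36, -0.38, -0.16 and 0.01. Of these, the Pgk1 probe is placed on another chromosome than the gene. Any part of these factors in the differences was not tested.

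The core motif bound by these factors, ACGTG on either strand, was found in the 300-base window around a RefSeq start site, most of it upstream (GRCm38.p6), in 19 of 36 members with a listed promoter, or 52.8%, against 26.8% of 11659 tested genes. A gene with several start sites counted when any held it, so more start sites gave more windows in which to find it. The shares were not adjusted for this, and the 36 include Pfkfb1, which was not tested for expression. Among members apart between groups it was found in 1 of 4 that were higher in KO (Slc2a1) and 2 of 4 that were lower. The longer E-box CACGTG, which contains it, was found in 16.7% of the members and 10.7% of the tested genes.

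Sample by sample, the members as a whole varied little. Their median against the WT mean was 0.05, -0.10 and 0.04 in WT and 0.12, -0.06 and 0.04 in KO. The markers varied more. In KO sample 1 the 13 muscle fibre genes tested had a median of 1.01, as compared to -0.32 and -0.09 in the other KO samples. The 5 adipocyte genes had 2.92 in KO sample 3, where Adipoq was -0.01 as compared to -4.30 to -4.08 elsewhere. The part of these cells in the values of single members was not tested. Among KO samples, Ldhb was lowest in sample 2, as were the medians of every cell type listed but satellite cells (glial medians of 0.80, 0.58 and 1.27). Slc2a1 and Pdk1 were lowest in sample 3. Eno2 was about level in samples 2 and 3 (-1.14 and -1.11), and its paired arrays differed by up to 0.23. What these orders reflect was not tested.

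**Figure D5:**
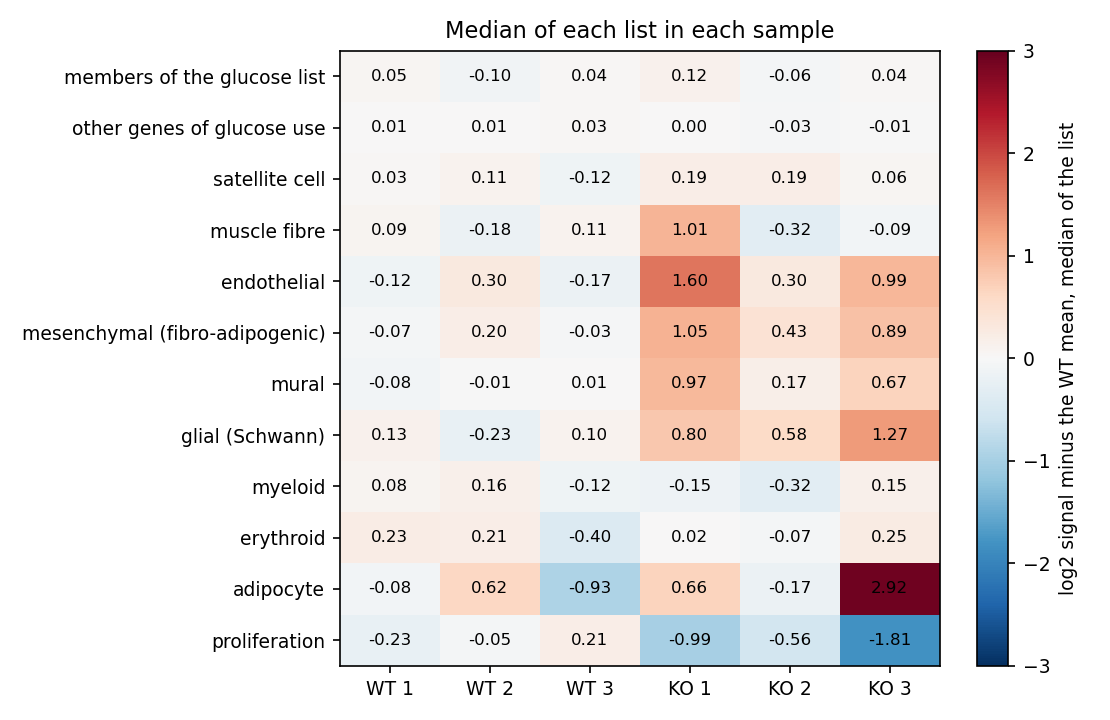
Median over each list of the log2 signal minus the WT mean, in the 3 WT and 3 KO samples. The members of the glucose list stay between -0.10 and 0.12, while endothelial markers reach 1.60 in KO sample 1 and adipocyte markers 2.92 in KO sample 3.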

How the data were processed

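The authors deposited the scanner files of 9 Agilent arrays, whose spot intensity is linear, background subtracted and spatially detrended by Feature Extraction 10.7.3.1 per the file headers. The authors also deposited a log2 table (column median 7.806) of unstated method, used as an alternative. Here log2 of the processed signal minus the 75th percentile of non-control spots was used. Outlier spots (93 to 148 an array) were dropped, repeat spots of a probe averaged, and 35 values this left empty set to that probe's average elsewhere. The filter, well above background on 3 or more of 9 arrays, kept 42983 probes and removed 12698; 1 per array gene name was fitted. Since 6 of 9 arrays are KO, a gene dim only in WT passes more easily.

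WT and KO were compared with limma 3.58.1 (lmFit, eBayes) in R 4.3.3, with statmod 1.5.0 and the data.table package (1.17.8), 4 residual and 2.04 prior degrees of freedom, and Benjamini-Hochberg adjustment over 28380 features. Python 3.11.15, pandas 2.3.3, scipy 1.17.1 and matplotlib 3.10.9 were used. The fit was tested on simulated data. Where WT was dim on all arrays, the KO mean was set against the higher, per array, of the probe's own and the lowest well-measured signal. All 38 members are named, and of each other list its called genes or the 2 with the smallest p; Hif1a, Vegfa, Kdr, Pecam1, Pax7, Itga7 and Adipoq were added after their values were seen. The members and lists were chosen with earlier results of these data known. Same-numbered WT and KO samples did not deviate together (r of -0.04, 0.03 and 0.01 over features), so the main fit did not pair them. These correlations cannot show whether same-numbered samples were handled together. Promoters were matched by symbol in a RefSeq list, and no genome of the array's build was used.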

Additional observations from a re-analysis of the deposited data

How the results depend on the processing

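The count of members called was 0 in every fit of 3 KO samples or fewer, those that leave out 1 sample or use the replicate block included. In these fits, 3 (without KO sample 1) to 9 (without WT sample 2) of the 37 had an unadjusted p under 0.05 in limma, and 5 in the main fit. Over all 28380 features, the counts in the same order were 2572, 3236 and 3117, the last being 11.0%. The count called was 2 (Ldhb and Pdk1) with all 9 arrays as separate samples, and 2 when samples were random blocks and slides fixed ones. The median difference of the members stayed between -0.07 and 0.05, with 14 of 37 above WT under median centring. Over all features the count of 40 became 1199 with separate arrays, 366 with the random block, 249 with normexp and quantile, 248 in the authors' deposited values, 104 for probes well above background on all arrays, 18 under median centring, 13 with no filter, 4 with slide as a block and 2 within slide 1. It was 0 with the replicate block (limma, 2949 at an unadjusted p under 0.05), and 0 to 9 without 1 sample. For the other pathway genes the count of 0 became 9 and 3 with arrays fitted separately or with the random block, 2 with normexp and quantile, 2 in the deposited values, and 1 (Ndrg1) for probes above background on all arrays. Of the 37 members, 20 kept their sign under all alternatives run and 17 turned or reached 0 under at least 1, all but 3 of them with a difference under 1 SE. Those 3 were Slc2a4 (-0.12 within slide 2, and -0.03 without WT sample 3, the range without 1 sample being -0.03 to 0.53), Pfkfb4 (-0.08 within slide 2) and Ldha (0.03 within slide 2); the cause was not tested. Ldhb, Pdk1, Slc2a1, Eno2, Pgk1, Eno1, Pkm2 and Taldo1 kept their direction under all 19 alternatives. The ratio of Ldhb over Ldha stayed between 0.75 and 1.06 and that of Eno2 over Eno1 between 0.55 and 1.01. Genes near background, such as Slc16a1, have the least precise values.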
